A study of Mus musculus with 18 samples.

Results

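Testis transcriptomes of mice given a faecal microbiota transplant (FMT) on a high-fat diet were compared with those of mice on the diet alone, to show which genes moved the same way after both kinds of transplant. The 9 libraries used were chosen by their labels from 18 in all. They were 3 labelled high-fat diet (HFD), 3 labelled high-fat diet with an FMT marked AOS at 10 mg/kg (HFD-AOSFMT) and 3 labelled high-fat diet with a control FMT (HFD-conFMT). All came from testis of ICR mice, an outbred strain, at 10 weeks of age, and the diet is common to the 9. The other 9 libraries, in groups of 3, were an untreated control, AOS at 10 mg/kg, and AOS at the same dose on the diet (HFD-AOS), and they entered the model as a measure of spread and are quoted as reference levels. AOS is written as the labels give it. The sources used here do not give the donors, the schedule of the transplants or the make-up of the diet, and no group used here had a sham transplant on the diet, so the procedure and the transferred material cannot be told apart. Whether replicates are separate animals is not stated in the labels, and the p-values therefore describe only the variation among these samples, which may be technical.

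The testis makes sperm in seminiferous tubules, where germ cells pass from spermatogonia through meiosis to round and then elongating spermatids, nursed by Sertoli cells. Leydig cells between the tubules make testosterone from cholesterol, and resident macrophages lie beside them. A microbiota transplant is placed in the gut, whose bacteria are known to alter nutrients, bile acids and immune signals in the body.

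Values are FPKM, fragment counts scaled to transcript length and to the size of the library, and differences are on the log2(FPKM + 1) scale, where the change of weakly expressed genes is understated. The 9 libraries summed to between 588564.9 and 632608.8 FPKM, between 12996 and 13149 genes reached 1 FPKM in them, and their relative depths, read from the steps between low values, were 0.972 to 1.03 with the absolute depth unknown. Testis markers were present throughout. The protamine Prm1 was at 10536 to 17539 FPKM, the Leydig cell hormone Insl3 at 2517 to 3964 FPKM and the meiotic chromosome protein Sycp3 at 175 to 196 FPKM over the 9. The median absolute log2 distance was 0.0785 to 0.110 within these 3 groups and 0.0862 to 0.128 between a transplant and an HFD library. Some libraries held transcripts of neighbouring or distant tissues. Crisp1, a secretory gene of the epididymis, was at 104 FPKM in HFD-conFMT 2 and 8.6 in HFD-conFMT 3, and between 0 and 0.59 in the other 7. Kap, a kidney gene, was at 31.5 to 37.7 FPKM in the HFD-AOSFMT libraries and at 0.15 FPKM or less in every other library, as described further on. In bulk tissue, fewer cells of a type and less RNA per cell cannot be told apart.

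Few genes passed the adjusted threshold after the transplants, and nearly all that did were higher. A gene that did not pass may still have changed. In all, 13105 genes averaged 1 FPKM or more across the 18 libraries and were tested. Of these, 10 rose in the 6 transplant libraries pooled and had both transplant means above the HFD mean (0.0763% of genes, limma adjusted p under 0.05), and 1 fell in the same way (0.00763%), 11 together (0.0839%). The 8 risen genes that the naming rule admits encode parts of gene expression (Taf10, Rpl13), mitochondrial and metabolic proteins (Higd1a, Hagh, Pcbd2), a chaperone (Dnajb1) and the proteins Bri3 and Dgcr6. The rule admits only genes whose 6 transplant and 3 HFD values do not overlap. That trait, given below for genes named by the rule, is therefore a condition of their choice and not a result. The changes were small, between 0.15 and 0.65 on the log2 scale. HFD-AOS, which had no transplant, also averaged above HFD for 9 of the 10 risen genes, beside 5801 of all 13105. Higher values were thus not limited to the transplants. The 10 were picked partly through low HFD values, so that count is no separate result. Without adjustment, 934 genes lay above HFD at a p under 0.05 (7.13%) and 827 below it (6.31%), of which 1760 (13.4%) had both transplants on the same side. Both transplant means lay on the same side of the HFD mean for 10071 of all 13105 genes (76.8%). The transplants share the HFD libraries, so that share says little by itself. All 6 transplant libraries lay above all 3 HFD libraries for 602 genes (4.59%) and below them for 574 (4.38%). Tested one at a time against HFD, the AOS-labelled transplant gave 3 genes at an adjusted p under 0.05 (0.0229%) and 1287 at an unadjusted one (9.82%), and the control-labelled transplant gave 0 and 1607 (12.3%).

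The count of 10 risen genes leaned on single libraries. It became 0 without HFD 3, HFD-AOSFMT 2, HFD-conFMT 2 or HFD-conFMT 3, 1 without HFD 2 or HFD-conFMT 1, 3 without HFD 1 or AOS 1, 5 without HFD-AOSFMT 3, 6 without HFD-AOS 2, 16 without HFD-AOS 3 and 81 without HFD-AOS 1. Without HFD 2, the genes at an unadjusted p under 0.05 numbered 644 above HFD and 404 below.

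Among genes of transcription and translation, Taf10 and Rpl13 rose. Taf10 (chr7:105739393-105744361, minus strand, mm10) encodes a subunit shared by the general transcription factor TFIID and the SAGA histone acetylase. It was at 117, 103 and 113 FPKM in HFD 1, 2 and 3, at 131, 142 and 139 in HFD-AOSFMT and at 134, 134 and 137 in HFD-conFMT. The pooled difference was 0.29 on the log2 scale (SE 0.044, limma adjusted p = 0.0255), with 0.30 in the AOS-labelled and 0.28 in the control-labelled transplant. Every transplant library lay above every HFD library, as the naming rule requires. Control averaged 111 FPKM, close to HFD, and HFD-AOS averaged 132 FPKM, close to the transplants. Rpl13 (chr8:123102350-123105244, plus strand) encodes a protein of the large ribosomal subunit. Its HFD libraries were at 423, 382 and 403 FPKM, HFD-AOSFMT at 448, 457 and 476 and HFD-conFMT at 469, 488 and 503. The groups did not overlap, and the pooled difference was 0.23 (SE 0.040, limma adjusted p = 0.0384). Control averaged 393 FPKM for Rpl13, AOS 448 and HFD-AOS 440. Ribosomal protein genes have near-identical processed copies, so the share of Rpl13 reads assigned to it is uncertain.

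Among mitochondrial and metabolic genes, Hagh, Higd1a and Pcbd2 rose. Hagh (chr17:24840143-24864450, plus strand) encodes glyoxalase II, which completes the removal of the glycolytic by-product methylglyoxal. It was at 143, 135 and 146 FPKM in HFD, 165, 170 and 166 in HFD-AOSFMT and 162, 164 and 162 in HFD-conFMT, a difference of 0.22 (SE 0.032, limma adjusted p = 0.0179). Its HFD values lay below all 15 other libraries, as for 14 genes in all (0.107%), and its transplant values above all 12 others, as for 23 genes (0.176%). Control averaged 149 FPKM for Hagh and HFD-AOS 158. Higd1a (chr9:121848563-121858362, minus strand) encodes a small hypoxia-inducible protein of the mitochondrial inner membrane. Its values were 15.7, 13.8 and 13.2 FPKM in HFD, 17.7, 17.8 and 17.4 in HFD-AOSFMT and 16.5, 17.8 and 16.4 in HFD-conFMT, 0.26 apart on the log2 scale (SE 0.046, limma adjusted p = 0.0384). Every transplant value of Higd1a lay above every HFD value. Control averaged 14.8 FPKM for Higd1a, AOS 17.9 and HFD-AOS 16.5. Pcbd2 (chr13:55727368-55776830, plus strand) encodes a pterin carbinolamine dehydratase, which recycles the tetrahydrobiopterin cofactor. It was a low gene, at 1.86, 1.36 and 2.02 FPKM in HFD, 3.31, 3.59 and 4.16 in HFD-AOSFMT and 3.20, 2.79 and 2.82 in HFD-conFMT. Its difference was the largest of the 10, at 0.65 (SE 0.113, limma adjusted p = 0.0384). It was 0.77 in the AOS-labelled and 0.53 in the control-labelled transplant. The model across all genes (limma) gave that gap an unadjusted p = 0.0758. Control averaged 2.31 FPKM for Pcbd2, AOS 2.58 and HFD-AOS 2.30.

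The chaperone gene Dnajb1 and the genes Dgcr6 and Bri3 also rose. Dnajb1 (chr8:83608193-83612653, plus strand) encodes an Hsp40 protein that hands unfolded clients to Hsp70. It was at 104, 103 and 105 FPKM in HFD, 115, 112 and 116 in HFD-AOSFMT and 119, 115 and 117 in HFD-conFMT, 0.15 apart (SE 0.025, limma adjusted p = 0.0352). Its transplant values lay above all 12 other libraries, and control averaged 104 FPKM. Dgcr6 (chr16:18052860-18071632, plus strand) is named for the DiGeorge syndrome critical region of its human counterpart. Its values were 66.4, 60.1 and 61.4 FPKM in HFD, 75.8, 75.6 and 78.2 in HFD-AOSFMT and 71.5, 77.0 and 77.0 in HFD-conFMT, a difference of 0.27 (SE 0.038, limma adjusted p = 0.0179). No HFD value reached the lowest transplant value of Dgcr6, that of HFD-conFMT 1. Control averaged 65.4 FPKM for Dgcr6, AOS 72.2 and HFD-AOS 72.1. Bri3 (chr5:144244437-144446757, plus strand) encodes a small membrane protein. It was at 49.8, 50.02 and 49.7 FPKM in HFD, 61.2, 66.0 and 60.8 in HFD-AOSFMT and 60.7, 60.5 and 64.4 in HFD-conFMT, 0.31 apart (SE 0.054, limma adjusted p = 0.0384). The 3 HFD libraries were very close together for Bri3, and control averaged 51.0 FPKM, AOS 61.2 and HFD-AOS 60.5.

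**Figure D1:**
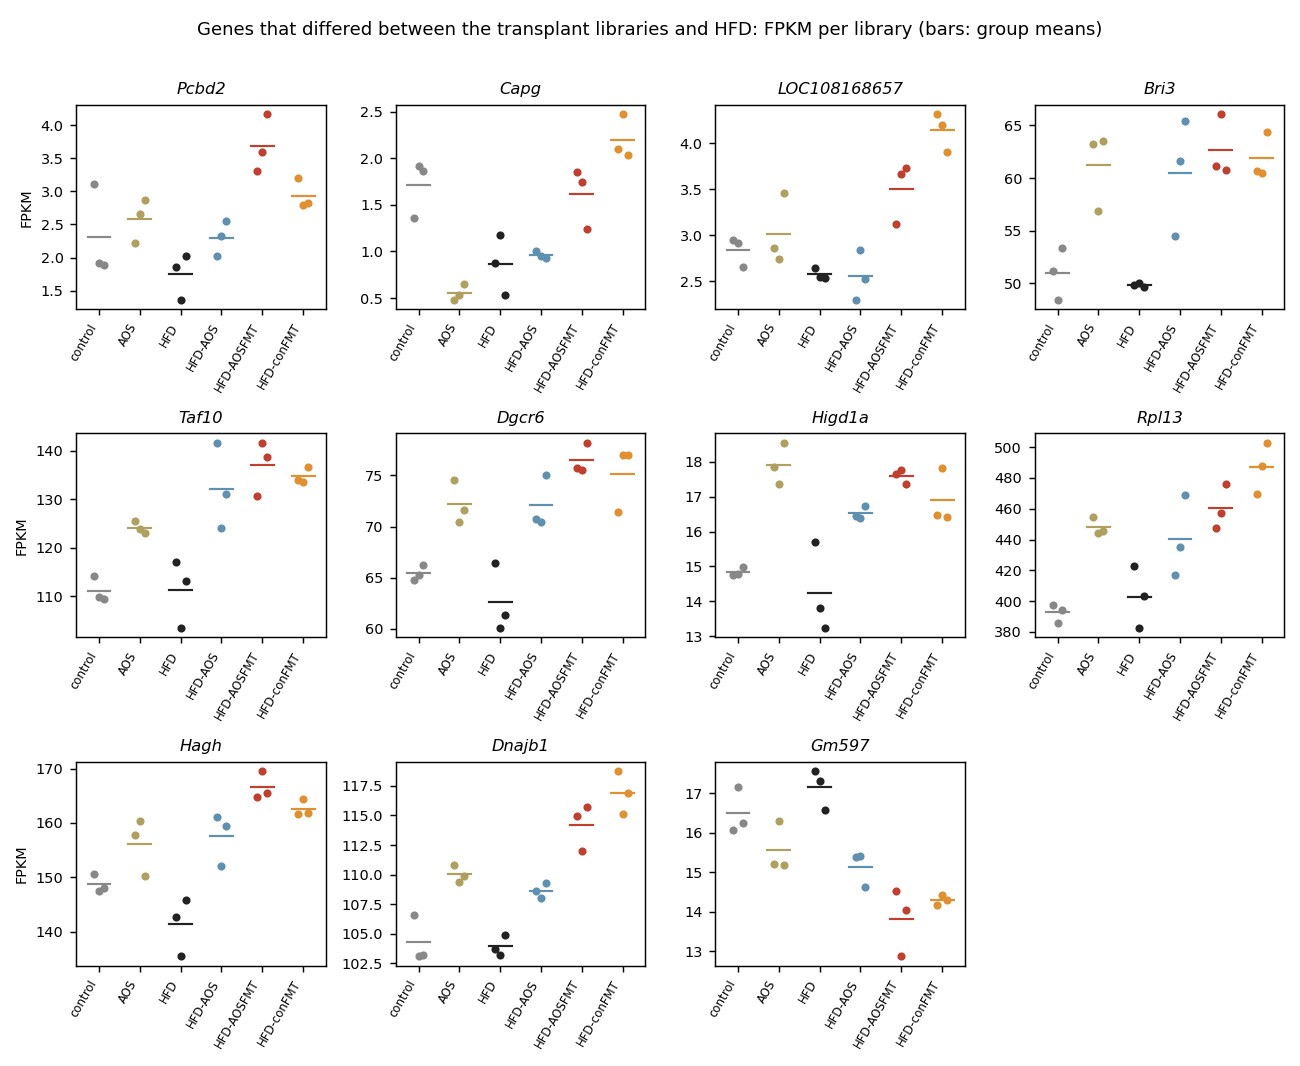
FPKM of the 11 called genes (y axes, linear and not starting at 0) in each of the 6 groups (x axis), where a point is 1 library and a bar the mean of 3. In each panel of a risen gene the 6 transplant points lie above the 3 HFD points, as for Bri3 with HFD at 49.7 to 50.02 and transplants at 60.5 to 66.0 FPKM, and for Gm597 they lie below. For the risen genes that the naming rule admits, this was a condition of the choice.

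The other 3 called genes are not admitted by the naming rule and are named because they were called. Capg (chr6:72544391-72562983, plus strand), an actin-capping gene strong in macrophages, was at 0.88, 1.18 and 0.53 FPKM in HFD, 1.85, 1.75 and 1.24 in HFD-AOSFMT and 2.10, 2.47 and 2.03 in HFD-conFMT. It rose by 0.64 (SE 0.108, limma adjusted p = 0.0352), and control averaged 1.71 FPKM and AOS 0.553. LOC108168657, an uncharacterised locus, was at 2.65, 2.55 and 2.54 FPKM in HFD, 3.12, 3.66 and 3.73 in HFD-AOSFMT and 4.31, 4.20 and 3.90 in HFD-conFMT, a rise of 0.42 (SE 0.069, limma adjusted p = 0.0332). In both, the control-labelled transplant lay further from HFD. The limma test of the transplants against each other gave an unadjusted p = 0.0296 for Capg and 0.0284 for LOC108168657, and neither passed after adjustment. The predicted gene Gm597 (chr1:28776117-28780252, minus strand) was the 1 that fell. Its values were 17.6, 17.3 and 16.6 FPKM in HFD, 14.5, 12.9 and 14.1 in HFD-AOSFMT and 14.2, 14.4 and 14.3 in HFD-conFMT, a difference of -0.27 (SE 0.042, limma adjusted p = 0.0273). All 6 transplant values of Gm597 lay below all 12 other libraries, as for 16 genes in all (0.122%).

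Several of the risen genes share a locus with another gene. Taf10 overlaps Ilk, Dgcr6 overlaps Prodh, Hagh overlaps Fahd1 and Bri3 overlaps Baiap2l1, all on the opposite strand, while Higd1a and Pcbd2 overlap antisense transcripts. Rpl13 overlaps the protein-coding gene Gm20388 and 2 small RNA genes, Snord68 and Mir7079, on its own strand, so reads that fit both cannot be told apart. The sources used here do not give the strand setting of the counts, so reads of partners on opposite strands cannot be told apart either. The 4 protein-coding genes on the opposite strand had differences of -0.03 for Ilk, -0.08 for Prodh, -0.07 for Fahd1 and -0.13 for Baiap2l1, and none passed the test. Gm20388 was not tested.

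The promoters of the called genes were read from RefSeq (GRCm38.p6), which gave a window for 10 of the 11. In the 250 bases before the start, the letters TGACG on either strand, the half-site of the cAMP response element that the germ cell factor CREM and its relative CREB bind, stood in 5 of 10 windows (Dgcr6, Dnajb1, Pcbd2, Rpl13 and Taf10). They stood in 25.9% of the windows of 10305 tested genes. The full palindrome TGACGTCA, which holds the half-site on both strands, stood in Rpl13 and in 2.75% of all windows. The letters CCAAT stood in 3 of 10 against 36.9%, GGGCGG in 6 of 10 against 55.3%, TATAAA in 0 of 10 against 6.66% and the heat shock element core GAANNTTC in 0 of 10, Dnajb1 included, against 5.47%, each searched on both strands. A match is a description of these letters only. The 120 bases before the start are shown 5′ to 3′ for the 4 genes whose half-site lies in that stretch, because they rose together, with the matched letters (TGACG, or CGTCA for the other strand) in capitals. They lie at chr8:123102230-123102349 (plus strand) for Rpl13, chr7:105744339-105744458 (minus strand) for Taf10, chr8:83608055-83608174 (plus strand) for Dnajb1 and chr16:18066283-18066402 (plus strand) for Dgcr6. The start is the first that the RefSeq table lists. For Dgcr6, which has several, it lies inside the gene span given above, whose first base is the start of a longer transcript. The start used for Taf10 also lies inside its gene span, so the window shown overlaps the end of that span.
Rpl13: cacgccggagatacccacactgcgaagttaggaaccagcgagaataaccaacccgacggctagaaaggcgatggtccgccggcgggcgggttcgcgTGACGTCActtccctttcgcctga
Taf10: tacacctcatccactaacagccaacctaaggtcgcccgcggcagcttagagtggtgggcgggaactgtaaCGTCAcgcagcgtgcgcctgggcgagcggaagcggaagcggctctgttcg
Dnajb1: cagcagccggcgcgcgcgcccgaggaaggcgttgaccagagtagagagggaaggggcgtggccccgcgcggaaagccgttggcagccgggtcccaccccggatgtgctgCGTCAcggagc
Dgcr6: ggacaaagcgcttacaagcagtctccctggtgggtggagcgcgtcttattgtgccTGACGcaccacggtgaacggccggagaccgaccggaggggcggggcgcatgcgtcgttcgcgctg

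The next genes above HFD missed the threshold, each at a limma adjusted p = 0.0521. Mrpl54, a protein of the mitochondrial ribosome, was at 160, 147 and 144 FPKM in HFD, 172, 184 and 188 in HFD-AOSFMT and 180, 187 and 194 in HFD-conFMT (0.29 on the log2 scale, SE 0.053). Snrpc, a protein of the U1 spliceosomal particle, was at 150, 139 and 145 FPKM in HFD, 168, 167 and 177 in HFD-AOSFMT and 158, 165 and 176 in HFD-conFMT (0.22, SE 0.041). In both genes the 6 transplant values lay above the 3 HFD values, as the naming rule requires. The other 2 were the membrane protein gene Tmem239 (0.30) and Tceal1 (0.29), a gene of the transcription elongation factor A-like family.

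No gene admitted by the naming rule fell, and the 12 of smallest p below HFD had adjusted p-values of 0.0986 to 0.133. The first was Piwil1, the PIWI protein that holds piRNAs in pachytene spermatocytes. It was at 117, 121 and 114 FPKM in HFD, 109, 106 and 106 in HFD-AOSFMT and 99.7, 101 and 104 in HFD-conFMT (-0.17, SE 0.035, adjusted p = 0.0986). Polr2a, the largest subunit of RNA polymerase II, was at 27.2, 29.8 and 28.9 FPKM in HFD, 26.6, 25.4 and 26.8 in HFD-AOSFMT and 24.1, 24.0 and 24.6 in HFD-conFMT (-0.17). Eif4g1, the scaffold of translation initiation, was at 96.1, 102 and 95.8 FPKM in HFD, 87.7, 87.6 and 86.6 in HFD-AOSFMT and 92.1, 86.2 and 87.7 in HFD-conFMT (-0.16). The nuclear pore protein gene Tpr (-0.16), the importin gene Kpna3 (-0.24), the microtubule minus-end protein gene Camsap2 (-0.19), the centrosomal gene Cep128 (-0.13), the dynein regulator Ndel1 (-0.18) and Prrc2c (-0.20) differed by similar amounts. The rest were Fam71a (-0.19), Abcc12 (-0.13) and Serinc2 (-0.30). Among them only Polr2a was lower in the control-labelled than in the AOS-labelled transplant at an unadjusted limma p under 0.05. That p was 0.0377, and it did not pass after adjustment.

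**Figure D2:**
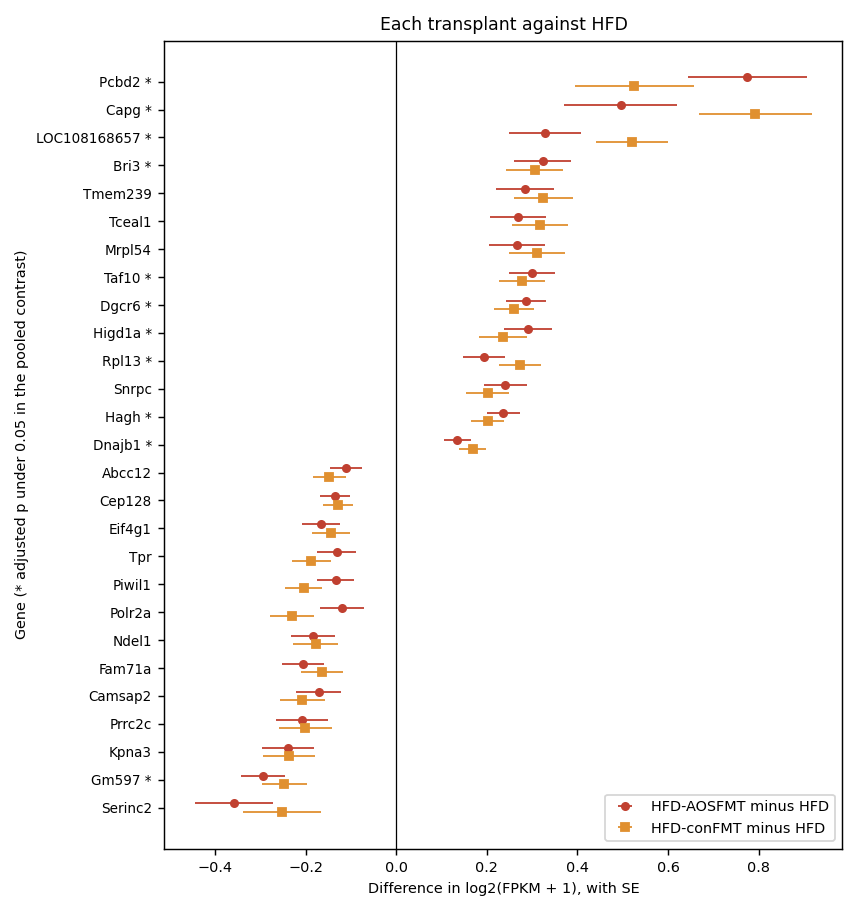
Difference from HFD in log2(FPKM + 1) (x axis) for the AOS-labelled transplant (circles) and the control-labelled transplant (squares), with the SE of the model as bars, for the called genes (asterisks) and the others named by the rule (rows). Both use the same 3 HFD libraries, and the genes were chosen for lying on 1 side of HFD in both, as Taf10 does at 0.30 and 0.28.

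The transplants themselves differed in 1 gene, Kap, among those tested (0.00763% at an adjusted p under 0.05, and 409 genes or 3.12% at an unadjusted one). Kap (chr6:133849851-133853762, minus strand), the kidney androgen-regulated protein of the proximal tubule, was at 37.7, 31.5 and 36.3 FPKM in HFD-AOSFMT 1, 2 and 3, at 0.15 in HFD 3 and at 0 in the other 14 libraries. The AOS-labelled transplant exceeded the control-labelled one by 5.17 on the log2 scale (limma adjusted p = 1.48e-16). Kap is thus also a 12th gene past the threshold in the pooled comparison (0.0916% with it), but with the transplants on opposite sides of HFD it does not count among the 11. With no filter on low values, 16 genes differed between the transplants. Of these 14 were higher in HFD-AOSFMT, and all 14 lay above the other 15 libraries in each of its 3. Among them were Kap, Slc34a1, S100g, Acsm2, Keg1, Cyp2j5, Glyat and Umod, several of them known from the kidney tubule, such as the phosphate transporter Slc34a1 and uromodulin, Umod. The lower ones were Lep and Ccl9.

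A list of 14 kidney genes, written after Kap was seen, summed to 40.9 to 46.8 FPKM in the HFD-AOSFMT libraries, 4.5 to 5.69 in HFD and 4.18 to 7.54 in HFD-conFMT. Without Kap the sums were 9.12 to 9.55, 4.5 to 5.54 and 4.18 to 7.54 FPKM. In the list 8 of 14 genes lay above all 15 other libraries in every HFD-AOSFMT library (Kap, Umod, Slc34a1, Slc22a6, Miox, Cyp4b1, Pck1 and Acsm2). The share of all genes that lie so was not counted, so the 8 have no background to be read against. Kap, Umod, Slc34a1 and Acsm2 were already among the genes that differed between the transplants, and they add no separate evidence. All of the 8 but Kap and Miox averaged under 1 FPKM in HFD-AOSFMT. The part of kidney RNA in the values of the AOS-labelled transplant was not tested.

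**Figure D3:**
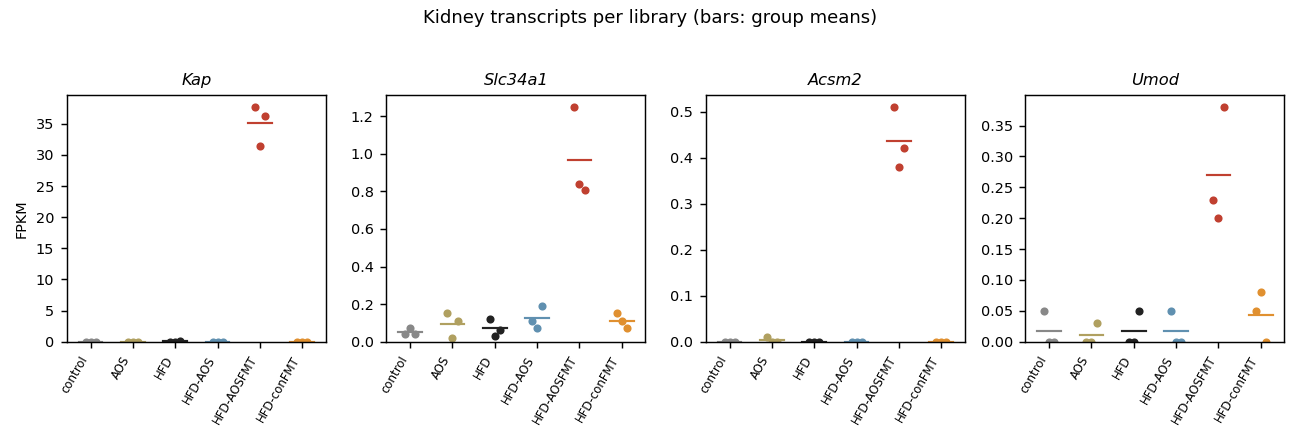
FPKM (y axes, linear, from 0) of 4 kidney genes in each of the 6 groups (x axis), where a point is 1 library and a bar the mean of 3. Kap lies between 31.5 and 37.7 FPKM in the HFD-AOSFMT libraries and at 0.15 or less elsewhere, and Slc34a1, Acsm2 and Umod are also highest there.

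Beyond single genes, 29 lists of cell type markers and pathways were read by how many members lay above or below HFD. Over all 13105 genes, 6317 (48.2%) lay above HFD, with a median difference of -0.0045, 7.13% were above at an unadjusted p under 0.05 and 6.31% below. Ribosomal protein genes were mostly higher after the transplants. Of 78 tested, 73 lay above HFD, 34 (43.6%) at an unadjusted p under 0.05 and 0 below at that level, with a median of 0.15 (0.12 in the AOS-labelled and 0.17 in the control-labelled transplant). Rpl13 was the 1 member that passed over all genes. After it came Rps13, at 282, 275 and 257 FPKM in HFD, 291, 308 and 303 in HFD-AOSFMT and 315, 327 and 322 in HFD-conFMT (0.19, adjusted p = 0.111). The list mean, centred on all 18 libraries, was -0.00849, -0.0969 and -0.0829 in HFD 1, 2 and 3, -0.00905, 0.0928 and 0.0912 in HFD-AOSFMT and 0.0647, 0.128 and 0.128 in HFD-conFMT. The groups thus overlapped by a narrow margin at HFD 1 and HFD-AOSFMT 1. Without a transplant the list mean was -0.0626, 0.0681 and 0.0452 in HFD-AOS 1, 2 and 3, -0.0341 to -0.00034 in AOS and -0.150 to -0.0687 in control. Raised values were thus not limited to the transplants.

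Nuclear genes of oxidative phosphorylation, the respiratory chain and ATP synthase, showed the same. Of 80 tested, 77 lay above HFD, 31 (38.8%) at an unadjusted p under 0.05 and 0 below, with a median of 0.13. None passed over all genes. Sdhd, a membrane anchor of complex II, was at 19.6, 20.5 and 19.8 FPKM in HFD, 23.7, 24.1 and 23.2 in HFD-AOSFMT and 23.1, 24.8 and 23.4 in HFD-conFMT (0.24, SE 0.052, adjusted p = 0.101). Uqcrc1, a core subunit of complex III, was at 173, 162 and 169 FPKM in HFD, 181, 183 and 178 in HFD-AOSFMT and 183, 182 and 184 in HFD-conFMT (0.11, adjusted p = 0.152). All 6 transplant libraries lay above all 3 HFD libraries for both genes, for 22 members of this list and for 24 ribosomal protein genes, beside 4.59% of all genes. Without HFD 2, 15 oxidative phosphorylation genes lay above HFD at an unadjusted p under 0.05. The mean of this list, centred on all 18 libraries, was -0.109 to -0.0122 in HFD and 0.0234 to 0.127 in the transplants. In groups without a transplant it was -0.105, 0.0441 and 0.0661 in HFD-AOS 1, 2 and 3, 0.00077 to 0.0183 in AOS and -0.114 to -0.0841 in control. The antioxidant list did not shift as a whole, with 16 of 27 members above HFD and a median of 0.01, which was -0.0021 with upper quartile scaling. It had 5 members above HFD at an unadjusted p under 0.05 and 0 below, and 2 above with the length and GC adjustment. Among them was Gpx4, the selenoenzyme that reduces lipid peroxides and forms part of the sperm midpiece, at 1335, 1147 and 1301 FPKM in HFD, 1425, 1449 and 1447 in HFD-AOSFMT and 1411, 1470 and 1494 in HFD-conFMT (0.20, adjusted p = 0.161).

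**Figure D4:**
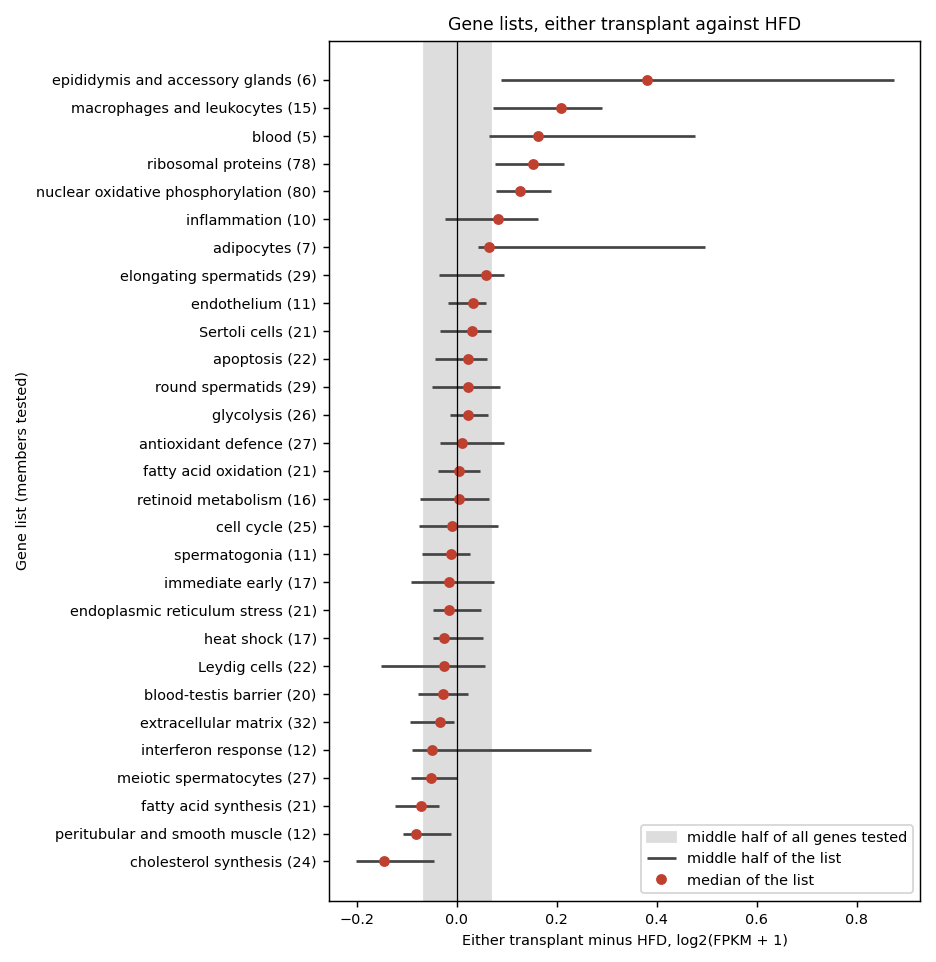
Difference of the pooled transplants from HFD in log2(FPKM + 1) (x axis) for each gene list (rows, with the number of members tested), where a point is the median and a line runs from the lower to the upper quartile of the list, beside the same range of all genes in grey. The medians of ribosomal proteins at 0.15, oxidative phosphorylation at 0.13 and macrophages at 0.21 lie to the right of the grey band. So do those of epididymis and accessory glands at 0.38, blood at 0.16 and inflammation at 0.08. Cholesterol synthesis at -0.15, peritubular and smooth muscle at -0.08 and fatty acid synthesis at -0.07 lie to its left.

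Short transcripts as a class were higher in the transplant libraries than in HFD, and the ribosomal protein and oxidative phosphorylation lists have short median lengths. Length here is that of the longest annotated transcript of a gene, which need not be the main one expressed. By that measure Rpl13, Rps13 and Uqcrc1 were at 1969, 2363 and 2473 bases. Over 12851 genes the pooled difference had a Spearman rho of -0.341 with transcript length and 0.271 with GC share, given as a description across genes, which are not independent. Genes were put in 5 equal bins of transcript length. In the bin of shortest transcripts the median difference was 0.063, with 429 genes above HFD and 55 below at an unadjusted p under 0.05. In the bin of longest transcripts it was -0.048, with 40 above and 336 below. The median length was 1076.5 bases for ribosomal protein genes, 1003 for oxidative phosphorylation genes and 3109 for all genes, and it was 1692 for the 12 genes named as higher and 5045 for the 12 named as lower. By library, the shortest bin minus the longest was 0.0170, -0.108 and -0.0428 in HFD 1, 2 and 3. It was 0.0350 to 0.0945 in the 6 transplant libraries, so the transplants lay above all 3 HFD libraries. In groups without a transplant it was -0.148 to -0.0761 in control and -0.0160 to 0.0244 in AOS. HFD-AOS 1, 2 and 3 were at -0.0057, 0.0558 and 0.0462, so raised values were not limited to the transplants. With a trend on length and GC share removed from each library, an alternative chosen after seeing the data, 2 genes rose (Dgcr6 and Taf10) and 1 fell (Gm597), each at a limma adjusted p = 0.0373. The median of the ribosomal protein list became 0.09997 and that of the oxidative phosphorylation list 0.0662, and 63 and 69 of their members lay above HFD. At an unadjusted p under 0.05 the counts were then 17 ribosomal protein genes above and 1 below, and 12 oxidative phosphorylation genes above.

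**Figure D5:**
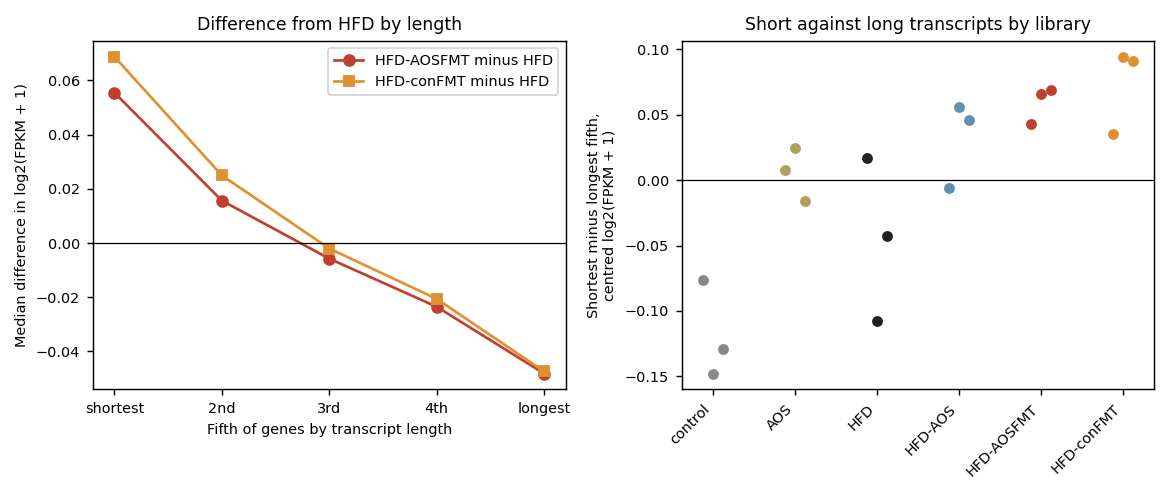
Left, median difference from HFD in log2(FPKM + 1) (y axis) in 5 bins of transcript length (x axis) for each transplant. Right, median of the shortest bin minus that of the longest (y axis, centred on all 18 libraries) in each library by group (x axis), with the transplants at 0.0350 to 0.0945 and HFD at -0.108 to 0.0170. HFD-AOS, without a transplant, lies at -0.0057 to 0.0558.

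Macrophage markers were mostly higher after the transplants, with the larger median after the control-labelled one, a gap that was not tested for the list. Of 15 tested, 13 lay above HFD, 10 of them in both transplants, and 5 (33.3%) were above at an unadjusted p under 0.05. The median was 0.21 (0.12 and 0.29), and none passed over all genes. Tyrobp, the signalling adaptor of myeloid receptors, was at 2.59, 3.39 and 3.20 FPKM in HFD, 4.12, 4.36 and 3.98 in HFD-AOSFMT and 4.91, 5.58 and 5.70 in HFD-conFMT (0.50, SE 0.142, adjusted p = 0.168). Lysozyme, Lyz2, was at 14.8, 15.4 and 14.1 FPKM in HFD, 15.2, 16.4 and 18.1 in HFD-AOSFMT and 19.7, 25.3 and 22.3 in HFD-conFMT (0.36). Tyrobp did not overlap between HFD and the transplants, and Lyz2 overlapped between HFD and HFD-AOSFMT. The complement genes C1qc (0.28), C1qb (0.24) and C1qa (0.18) were the others at that level. The defining macrophage genes Adgre1 (0.07), Csf1r (0.07) and Mrc1 (-0.02) lay close to HFD. The summed level of the list was 104 to 112 FPKM in HFD, 108 to 112 in HFD-AOSFMT and 122 to 164 in HFD-conFMT. Centred on all 18 libraries, the list mean was -0.174 to -0.109 in HFD, -0.0947 to -0.0267 in HFD-AOSFMT and 0.0044 to 0.333 in HFD-conFMT. In groups without a transplant it was -0.0483 to 0.0618 in control, -0.157 to 0.223 in AOS and -0.0607 to 0.108 in HFD-AOS. Values above those of HFD were thus not limited to the transplants. Adipocyte genes were uneven, with Fabp4, a fatty acid carrier of fat cells, at 19.8, 27.4 and 19.1 FPKM in HFD-conFMT, 0.93, 9.76 and 7.15 in HFD-AOSFMT and 3.45, 7.53 and 7.92 in HFD. The adipocyte list summed to 58.6 to 70.0 FPKM in HFD-conFMT, 31.6 to 50.04 in HFD-AOSFMT and 33.0 to 46.7 in HFD, and the part of fat cells in the macrophage values was not tested. With the length and GC adjustment the macrophage median was 0.107 and 3 members lay above HFD at an unadjusted p under 0.05.

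Genes of cholesterol synthesis were mostly lower after the transplants. Of 24 tested, 20 lay below HFD, 6 (25%) at an unadjusted p under 0.05 and 0 above at that level, with a median of -0.15 (-0.12 and -0.15), and none passed over all genes. Hmgcs1, which makes the HMG-CoA that enters the pathway, was at 31.6, 33.6 and 29.0 FPKM in HFD, 26.7, 26.6 and 29.3 in HFD-AOSFMT and 25.8, 22.9 and 26.1 in HFD-conFMT (-0.25, SE 0.060, adjusted p = 0.123). Msmo1, a sterol methyl oxidase, was at 20.5, 22.4 and 17.2 FPKM in HFD, 14.5, 14.99 and 18.9 in HFD-AOSFMT and 13.9, 11.6 and 15.6 in HFD-conFMT (-0.41, adjusted p = 0.158). In both genes HFD-AOSFMT 3 lay among the HFD values. Hsd17b7 (-0.27), Sc5d (-0.26), Lss (-0.19) and Nsdhl (-0.16), all enzymes from lanosterol formation onward, were the others at that level. The list mean, centred on all 18 libraries, was 0.112, 0.150 and 0.0280 in HFD, -0.0819, -0.0371 and 0.0756 in HFD-AOSFMT, -0.0482, -0.0604 and -0.0392 in HFD-conFMT. In groups without a transplant it was 0.101 to 0.224 in control, -0.102 to -0.0291 in AOS and -0.144 to -0.0479 in HFD-AOS, so low values were not limited to the transplants. The count of 6 at an unadjusted p under 0.05 was 10 with upper quartile scaling and 11 without HFD 3, and the median was -0.08 without HFD 2. Transcript length moved this list little, the median being -0.15 with the length and GC adjustment too.

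Fatty acid synthesis genes lay below HFD in 19 of 21 cases, 5 (23.8%) at an unadjusted p under 0.05, with a median of -0.07. The list mean, centred on all 18 libraries, was 0.0387 to 0.0827 in HFD and -0.0861 to 0.0068 in the transplants. In groups without a transplant it was 0.0761 to 0.228 in control, -0.0581 to 0.0157 in AOS and -0.132 to -0.0371 in HFD-AOS. Low values were thus not limited to the transplants. Fads2, a desaturase of polyunsaturated fatty acids, was at 87.8, 79.1 and 91.9 FPKM in HFD, 64.9, 70.4 and 80.8 in HFD-AOSFMT and 68.4, 53.8 and 71.9 in HFD-conFMT (-0.34, SE 0.099, adjusted p = 0.172). HFD-AOSFMT 3 lay within the HFD range for Fads2. The partner desaturase Fads1 (-0.29), the ATP citrate lyase Acly (-0.19), the elongase Elovl5 (-0.17) and the acyl-CoA synthetase Acsl3 (-0.14) were the others. Fatty acid oxidation had 1 of 21 members above HFD at that level and 0 below.

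Meiotic and spermatid lists had small medians, all inside the middle range of all genes (quartiles -0.067 and 0.068). Of 27 meiotic genes 20 lay below HFD, with a median of -0.05, 4 (14.8%, beside 6.31% of all genes) lower and 1 higher at an unadjusted p under 0.05. Without HFD 2 the median was -0.02, with 2 lower at that level. The lower ones were Piwil1, the synaptonemal complex genes Sycp1 (-0.22) and Sycp2 (-0.17) and the cohesin Smc1b (-0.22). The higher one was Syce3, a small protein of the same complex, at 136, 99.7 and 126 FPKM in HFD, 138, 202 and 191 in HFD-AOSFMT and 152, 142 and 169 in HFD-conFMT (0.45, adjusted p = 0.156). Round spermatid genes (29 tested) had a median of 0.02, with 3 above and 1 below at that level, among them the kinase Tssk6 (0.23). Elongating spermatid genes (29 tested) had a median of 0.06, with Meig1 (0.16) and Prm1 (0.25) above at that level. The direction of both spermatid lists depended on the scaling. With quantile normalization the medians were -0.02 for round and -0.0016 for elongating spermatids, with 1 above and 5 below, and 0 above and 5 below, at an unadjusted p under 0.05. With the length and GC adjustment they were -0.03 and -0.02, with 2 above and 4 below, and 0 above and 3 below. The meiotic median was then -0.03, with 1 above and 5 below, so the stages no longer lay on opposite sides of HFD. Upper quartile scaling kept both medians above 0, with 3 above and 2 below, and 2 above and 3 below. Without HFD 2 the elongating median was 0.01, with 1 above and 2 below. Prm1, which packs sperm DNA, was at 14772, 10536 and 15091 FPKM in HFD, so that HFD 2 was lowest. The share of protamine and transition protein transcripts was 6.54 to 8.46% in HFD and 7.95 to 8.98% in the transplants, which overlap.

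Of the supporting cells, 14 of 21 Sertoli cell genes lay above HFD, 9 of them in both transplants. With the length and GC adjustment 10 lay above. The inhibin subunit Inha (0.22, adjusted p = 0.215) was the 1 at an unadjusted p under 0.05. Leydig cell genes (22 tested) had a median of -0.03, with 4 below HFD at that level and 0 above. That median ran from -0.09 without HFD 3 to 0.02 without HFD-AOSFMT 1, and without HFD 2 there was 1 below at that level. Star, which carries cholesterol into the mitochondrion, was at 42.6, 53.3 and 46.8 FPKM in HFD, 33.4, 32.6 and 49.8 in HFD-AOSFMT and 34.4, 39.6 and 41.7 in HFD-conFMT (-0.31, adjusted p = 0.356). The kallikrein Klk1b21 was at 5.64, 12.3 and 6.88 FPKM in HFD, 5.91, 4.26 and 6.03 in HFD-AOSFMT and 3.28, 1.44 and 2.86 in HFD-conFMT (-0.93, adjusted p = 0.161). HFD 2 was the highest of these libraries for both genes, and reads of the near-identical kallikrein copies may have been divided wrongly. Cyp11a1 (-0.10) and Cyp17a1 (-0.19), the steroidogenic cytochromes, had adjusted p-values of 0.778 and 0.485, and their groups overlapped. Extracellular matrix genes lay below HFD in 25 of 32 cases, 13 of them in both transplants. At an unadjusted p under 0.05 there were 5 below and 1 above. The medians were -0.09 in the AOS-labelled and 0.02 in the control-labelled transplant. The pooled median of -0.03 became 0.03 without HFD 2, and with array weights 15 members lay above HFD and 17 below. In the interferon response (12 tested), inflammation (10) and retinoid metabolism (16) lists 0 members reached an unadjusted p under 0.05 in either direction, and in the blood-testis barrier list (20) 1 did, the junction scaffold Tjp1 (-0.12). The list of epididymal and accessory gland genes, with 6 of 27 members tested, had a median of 0.38, which was 0.03 in the AOS-labelled transplant and 0.14 without HFD-conFMT 2, the library of high Crisp1. Of 12 peritubular and smooth muscle genes 9 lay below HFD (median -0.08), 5 of them in both transplants. Their median was -0.13 in the AOS-labelled and 0.03 in the control-labelled transplant. All 5 blood genes lay above HFD (median 0.16), 3 of them in both transplants. Only the heme enzyme Alas2 (0.16) was at an unadjusted p under 0.05. Of 17 heat shock genes, Dnajb1 was the 1 at that level and the list median was -0.02. Of 25 cell cycle genes, 5 (20%, beside 7.13% of all genes) lay above HFD at that level and 2 (8%) below. Their median was -0.01, and Aurka (0.19) and Cdc20 (0.15) were among those above. With the length and GC adjustment 3 lay above and 2 below. The spermatogonia, endothelium, immediate early, endoplasmic reticulum stress, apoptosis and glycolysis lists had medians between -0.02 and 0.03.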

How the data were processed

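RNA was extracted from frozen testis with Trizol and a column kit and made into Illumina libraries, per the labels' protocols. Reads were mapped with Bowtie 0.12.2 to mm10, per the submitters' processing notes. The sources used here give no counting tool, annotation or strand setting. The deposited file is 1 table of 20985 rows, whose deposited values were read as FPKM from their steps, which shrink with transcript length, since the header names no unit. They are given to 2 decimals, so low genes are coarse. Symbols listed more than once (6 rows) were dropped, and each column was tied to a sample through the letters and number in its name.

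Genes averaging 1 FPKM or more over 18 libraries were kept (13105) and taken as log2(FPKM + 1). One limma model (limma 3.58.1, R 4.3.3) with 6 group means, a mean-variance trend and 12 residual degrees of freedom gave the transplants' mean minus HFD, each transplant minus HFD and their difference, two-sided, with Benjamini-Hochberg adjustment over all 13105 genes and a threshold of 0.05. On simulated data with this comparison over 13105 genes the model recovered 85 of 100 genes changed by 0.5 and 99 of 100 changed by 1, with 6 false calls. The simulated noise was normal and independent between genes, with no length trend and no RNA of other tissues. Changes under 0.5, as in most of the called genes, were not simulated, so their recovery is unknown. Counting intervals are not given, as the absolute depth is unknown.

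The naming rule took, in each direction, up to 12 called genes of largest change with both transplants on 1 side, no overlap between groups, a higher mean of 2 FPKM or more, no predicted name, filled by smallest p, then 2 genes per list of smallest p and a few defining markers. The comparison, the lists and the rule were chosen with earlier results of these data known. Further list members were named once their values had been seen. Lists are described by counts and medians. Coordinates and lengths are from GENCODE M21 (GRCm38, the assembly of mm10), and promoter windows from RefSeq (GRCm38.p6). The length of a gene is that of its longest annotated transcript. There were 11 processing alternatives and 18 fits leaving out 1 library. Plots used matplotlib 3.10.9 (Python 3.11.15).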

Additional observations from a re-analysis of the deposited data

Results flagged for a closer look

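Kap differed between the transplants, the AOS-labelled exceeding the control-labelled one by 5.17 on the log2(FPKM + 1) scale. Across the 6 transplant libraries, 56 genes and list means were each examined for 1 library far from the others. Of these, 4 had one, where chance gives about 1 in 20, so the count was close to that share. The 6 libraries pool both transplants. Eif4g1, the translation initiation scaffold, was at 92.06 FPKM in HFD-conFMT 1, above the other 5. Gm597 was at 12.87 FPKM in HFD-AOSFMT 2, below the other 5. The mean of the adipocyte list, centred on all 18 libraries, was -0.653 in HFD-AOSFMT 1, and that of the cholesterol synthesis list was 0.0756 in HFD-AOSFMT 3.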

How the results depend on the processing

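The count of genes that rose in both transplants (10) was 10 with a pseudocount of 0.1, 11 with no filter on low values and 14 with a mean of at least 5 FPKM, and it was 15 with only the 9 libraries and 15 with the replicate block. It became 5 with quantile normalization, 5 with upper quartile scaling, 41 with array weights, 22 with the 6 and 3 libraries as 2 groups, 2 with the length and GC adjustment and 0 without HFD-conFMT 2 and control 3, the libraries of highest Crisp1 (both added after seeing the data). Leaving out 1 library gave 0 to 81. The count of genes that fell (1) became 3 with no filter, 2 with quantile normalization, 4 with only the 9 libraries, 9 with array weights, 2 with the replicate block, 7 as 2 groups and 0 without those 2 libraries, and 0 to 20 leaving out 1 library. The difference between the transplants (1 gene) became 16 with no filter and was 1 with every other alternative that keeps the transplants as separate groups, leaving out 1 library included; with the 6 and 3 libraries as 2 groups it has no value. Of genes at an unadjusted p under 0.05, 934 lay above HFD and 827 below, against 792 and 1033 with quantile normalization and 772 and 1131 with upper quartile scaling. The median of all genes lay between -0.016 and 0.0052 over the alternatives, and none turned the direction of a called gene. Dgcr6 passed in 23 of 29 alternatives, Taf10 in 22, Hagh and Gm597 in 20, and Rpl13 in 7. List medians stayed on 1 side of 0 for ribosomal proteins (0.09997 to 0.190), oxidative phosphorylation (0.066 to 0.156), macrophages (0.107 to 0.274) and cholesterol synthesis (-0.174 to -0.085). Same-numbered libraries of the 3 groups correlated at -0.102 to 0.0651 in their deviations from the group means, and libraries of other numbers at -0.0514 to 0.0941. These ranges overlapped. With only 3 libraries behind each group mean, they cannot decide whether the numbers pair the samples. The cause of these shifts was not tested.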
